A study of Homo sapiens with 4 samples.

Results

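The genes described here build the machinery that moves a newly made protein into the endoplasmic reticulum (ER), cuts off its signal peptide and attaches its first sugar chain. There are 34 of them among the 22187 genes of the tables, chosen by symbol: 7 of the signal recognition particle and its receptor, 6 of the SEC61 channel with SEC62 and SEC63, 6 of the translocon-associated protein complex with the TRAM proteins, 5 of signal peptidase, and 10 of the oligosaccharyltransferase. The rule uses symbols alone and no measured value. All 34 passed the filter on low counts.

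In this pathway the signal recognition particle binds a signal sequence as it leaves the ribosome and brings the ribosome to its receptor on the ER membrane, where the chain threads through SEC61. Signal peptidase then removes the signal peptide, and the oligosaccharyltransferase transfers a preassembled glycan from a lipid carrier to asparagine side chains. Plasma cells, from which myeloma arises, secrete immunoglobulin and depend heavily on this route.

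RNA was sequenced from KMS18 and KMS28BM, a pair of human myeloma lines that carry t(4;14), a translocation that brings NSD2 and FGFR3 under immunoglobulin heavy chain regulatory elements. Each line gave 1 control library, labelled Luc, and 1 library in which PKCα, the kinase that PRKCA encodes, was stably knocked down. The question is how the transcripts of such cells differ when PKCα is lowered. The labels do not give the knockdown reagent, the number of cultures, or whether each derivative was a pool or a clone.

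The libraries held 37940949 to 39507281 estimated counts, and 11100 to 11591 genes reached 1 FPKM (fragments scaled to gene length and library size). PRKCA had 7.46 FPKM in the KMS18 control, 1.47 in its knockdown, 10.9 in the KMS28BM control and 2.43 in its knockdown, so 19.7% and 22.4% of the control level was left. Of 11 plasma cell markers 10 reached 1 FPKM, and CD27 was listed at 0 in every library. CD3E was the 1 of 7 T and NK cell markers above 1 FPKM, with 7.32 FPKM in the KMS18 control, 20.9 in its knockdown, 1.0 in the KMS28BM control and 3.27 in its knockdown. CD3D, CD3G, CD2, CD8A and KLRD1 were at or below 0.4 FPKM, and NKG7 was at most 0.97. The summed level of the T and NK list was 8.90, 22.6, 1.35 and 3.53 FPKM over the same order of libraries. B cell markers reached 1 FPKM in 3 of 7 cases (PAX5, CD79A and CIITA), myeloid markers in 2 of 7, stromal and endothelial markers in 1 of 7 and erythroid markers in 0 of 5. The summed level of the B cell list was 56.7, 74.4, 12.5 and 11.7 FPKM over the same order of libraries. CIITA had 53.9 and 70.8 FPKM of this in KMS18, and CD79A had 9.89 and 6.72 in KMS28BM. The summed level of the myeloid, the stromal and endothelial, and the erythroid list was at most 2.31 FPKM each. In cultures measured in bulk, fewer cells of a type and less RNA per cell cannot be told apart.

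Over both lines, 13 of the 34 genes fell with the knockdown and 0 rose, against 5.25% of all 14870 genes tested that fell and 3.57% that rose (edgeR quasi-likelihood test, cell line and knockdown in the model, Benjamini-Hochberg adjusted p of 0.05). The median log2 difference of the 34, knockdown minus control, was -0.33, beside 0.02 over all genes tested, and 30 of the 34 were below 0. At an unadjusted p under 0.05, 20 of the 34 were lower (13.8% of all genes) and 2 higher (12.6%), and DESeq2 and limma also called 0 higher. SSR1 led with a log2 difference of -1.72, followed by SEC63 (-1.38), SPCS3 (-1.13), SSR3 (-1.12) and RPN1 (-1.10). The smallest fall among the 13 was that of SEC61B (-0.49). The calls rest on pairing the libraries by line: without the line in the model 0 of the 34 passed, with 10 lower at an unadjusted p under 0.05 (1.04% of all genes), and 0 of all genes passed.

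**Figure D1:**
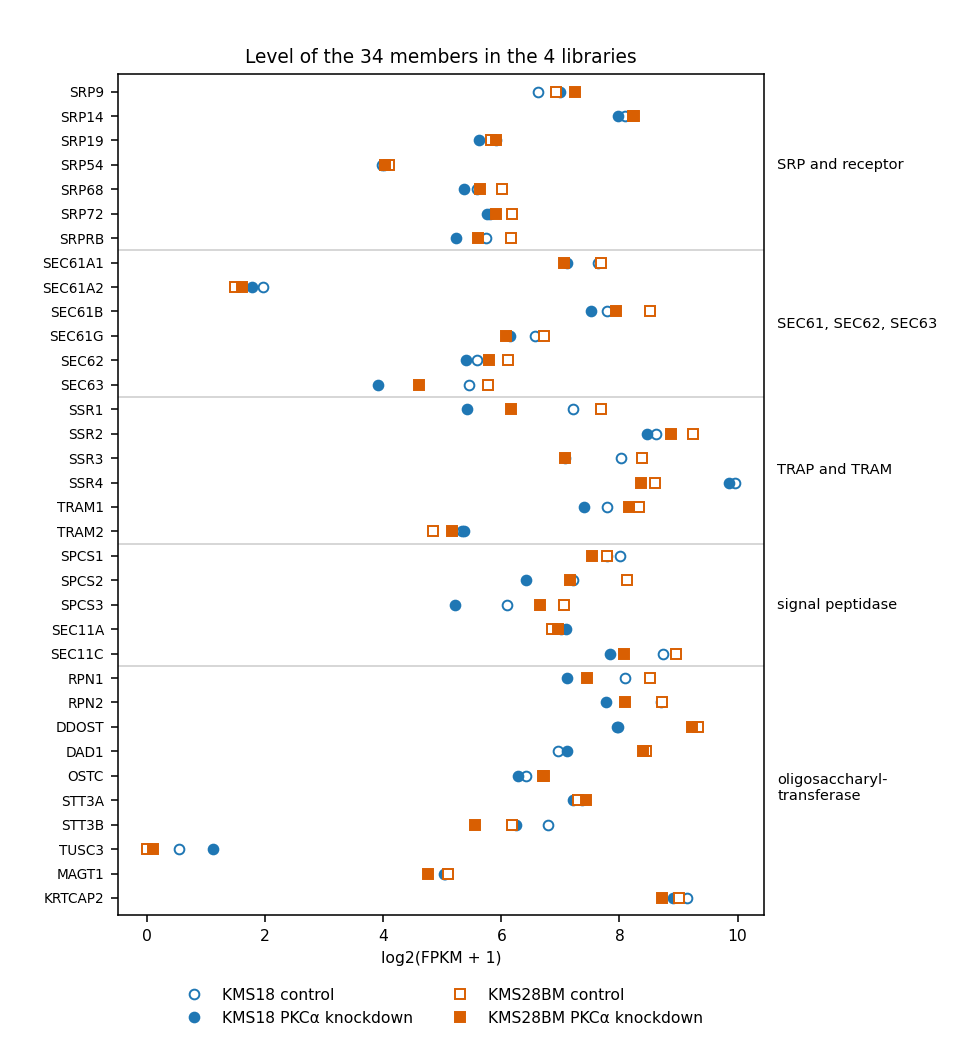
Level of the 34 genes in each library as log2(FPKM + 1), grouped by complex; open symbols are controls and filled symbols knockdowns, circles KMS18 and squares KMS28BM. SSR1, SEC63, SSR3 and RPN1 have both filled symbols to the left of both open ones, and SEC11A and DAD1 keep filled and open symbols of a line close together.

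The sequences that the results refer to come from promoters and 3′ UTRs. Promoter windows (RefSeq, GRCh38.p14, 250 bases before to 50 after each annotated start) were found for 29 of the 34 genes. They were searched on both strands for ACGTGGC and for TGACGTGG, core letters bound by the unfolded protein response factors XBP1 and ATF6. ACGTGGC was in 9 of the 29 genes (31.0%), beside 5.62% of 10259 tested genes with a window and 3.22% of all 35116 windows. Of the 11 genes that fell and had a window 6 held it, and 3 of the other 18 did (OSTC, SRP19 and SSR4). Over all genes, 10.1% of the 603 that fell with a window held it. The matches in genes that fell are shown on the strand of the gene, with the motif, or its reverse complement GCCACGT, in capitals.
SSR1, chr6:7313266-7313302: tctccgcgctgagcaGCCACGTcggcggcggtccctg
SSR1, chr6:7313316-7313352: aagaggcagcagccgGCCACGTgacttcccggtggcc
SEC63, chr6:107958260-107958296: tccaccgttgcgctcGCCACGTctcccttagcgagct
SSR3, chr3:156554146-156554182: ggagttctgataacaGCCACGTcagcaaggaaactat
SPCS2, chr11:74949132-74949168: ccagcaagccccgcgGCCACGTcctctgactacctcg
SEC11C, chr18:59139828-59139864: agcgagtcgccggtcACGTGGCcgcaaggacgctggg
SRPRB, chr3:133805792-133805828: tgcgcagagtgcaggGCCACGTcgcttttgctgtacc

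These matches begin from 8 bases (SRPRB) to 138 bases (SSR1) before an annotated start, and SSR3 has 3 further matches in the windows of this and other starts. The first SSR1 match and those of SEC63, SPCS2 and SRPRB share the letters GCCACGTc, and so does the SSR3 match shown, which goes on to GCCACGTca and so overlaps a TGACGTGG match on the opposite strand. TGACGTGG was in 4 of the 29 genes (SEC62, SRP19, SSR3 and SSR4), beside 1.19% of tested genes and 0.729% of windows, and 1 of these 4 fell. The full ER stress element (CCAAT, 9 bases, CCACG) and the ER stress element II (ATTGG, 1 base, CCACG) were in 0 of the 29 genes. They were in 0.146% and 0.136% of tested genes with a window, and in 0.0769% and 0.0541% of all windows. Elements this rare make 0 of 29 uninformative. A match describes letters in a window; binding was not measured here.

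The word AGTCTA, its longer form AGTCTAA, and the form CAGTCTA with a leading base were searched in 3′ UTRs (GENCODE 29, GRCh38) on the transcript strand. These words came from earlier work on the same libraries, so their presence in genes that fell is not independent evidence. AGTCTA was in the 3′ UTR of 6 of the 13 genes that fell and of 1 of the other 21, TRAM2, beside 25.4% of 12775 tested genes with a 3′ UTR and 54.1% of the 750 that fell. The genes that fell also have longer 3′ UTRs, with a median of 1726 bases for the longest annotated one, beside 958 in the other 21 and 1382 over all tested genes. The part of that length in the share with the word was not tested. A match from each of the 6 genes that fell is shown as DNA letters 5′ to 3′, with the word in capitals.
SSR1, chr6:7281744-7281771: taaatctcccCAGTCTAActttttgtca
SEC63, chr6:107871391-107871417: attatctgatCAGTCTAtggtcccagt
SPCS3, chr4:176330175-176330201: aacgaatgaaAGTCTAAcacataactc
RPN1, chr3:128620100-128620126: tctgttctgaAGTCTAAgatatttttc
SSR3, chr3:156543087-156543112: atgtttttatAGTCTAgagcctttaa
SPCS2, chr11:74977166-74977191: ctgaaattttAGTCTAttctgggtaa

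SSR1 alone among these 6 holds the 8-base run that contains both longer words. Its AGTCTA is at base 8104 of a 3′ UTR of 8721 bases, and the other SSR1 match is at base 5719. The length listed for SSR1, by which FPKM is divided, was only 2329 to 2437 bases over the libraries. The SPCS3 match shown is at base 1855 of its 3′ UTR, with a listed length of 1558 bases in the KMS28BM knockdown. Whether the counted transcripts held these sites was not tested. AGTCTAA was in 9.07% of tested genes and CAGTCTA in 8.89%. The median log2 difference was -1.12 in the 7 genes of the machinery with AGTCTA and -0.28 in the 27 without it, beside -0.09 and 0.04 over all tested genes. Because the words came from these same libraries, this contrast is not independent evidence either. SSR1, SEC63, SSR3 and SPCS2 hold both a promoter match and a 3′ UTR match.

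Among the 7 genes of targeting, 1 fell, the receptor subunit SRPRB, and the median log2 difference was -0.18. SRPRB, the membrane-anchored GTPase subunit of the receptor for the particle, had 52.5 FPKM in the KMS18 control, 36.4 in its knockdown, 71.0 in the KMS28BM control and 47.8 in its knockdown. Each knockdown library lay below both controls, and the log2 difference was -0.70 (SE 0.10, edgeR adjusted p = 0.0106, n = 2 lines). The other receptor subunit, SRPRA, is not among these 7 genes and was read with a neighbouring list. Its log2 difference had the opposite sign and did not pass the test (0.28, SE 0.10, edgeR adjusted p = 0.116). The fall of SRPRB therefore does not describe the receptor as a whole. The 6 protein subunits of the particle did not pass the test, with edgeR adjusted p from 0.0647 (SRP68, log2 difference -0.37) to 0.566 (SRP54). SRP68 and SRP72, which bind each other on the particle, were at 40.5 to 63.6 and at 53.1 to 71.1 FPKM over the 4 libraries, and SRP19, which helps load SRP54, was at 48.0 to 59.2.

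SRP9, which with SRP14 forms the end of the particle that slows translation, was the 1 gene of the 34 that was higher in both lines beyond counting error. It had 96.9 FPKM in the KMS18 control, 126 in its knockdown, 120 in the KMS28BM control and 151 in its knockdown (log2 difference 0.29, SE 0.09, edgeR adjusted p = 0.101). SRP14, its partner, had 272 FPKM in the KMS18 control, 250 in its knockdown, 298 in the KMS28BM control and 302 in its knockdown, with a log2 difference of -0.14 on counts. SRP54, the GTPase that binds the signal sequence, was the lowest of the particle at 14.8 to 16.1 FPKM. SRP9, SRP14, SRP68 and SRP72 have named pseudogenes, so the split of their reads is uncertain.

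In the channel group 4 of 6 genes fell, with a median log2 difference of -0.54. All of the subunits that form the heterotrimer of the main channel are among them: SEC61A1, the pore, SEC61B and SEC61G. SEC61A1 had 198 FPKM in the KMS18 control, 138 in its knockdown, 206 in the KMS28BM control and 132 in its knockdown (log2 difference -0.58, SE 0.10, edgeR adjusted p = 0.0226). SEC61G had 94.4 FPKM in the KMS18 control, 70.2 in its knockdown, 105 in the KMS28BM control and 66.5 in its knockdown (log2 difference -0.62, SE 0.11, edgeR adjusted p = 0.0226). For both genes the knockdown libraries lay below both controls.

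SEC61B had 221 FPKM in the KMS18 control, 183 in its knockdown, 367 in the KMS28BM control and 245 in its knockdown. Its groups overlap, because the KMS28BM knockdown stayed above the KMS18 control, and the fall within each line gave a log2 difference of -0.49 (edgeR adjusted p = 0.0415, SE 0.11). With no filter on low counts, both the fit and the number of genes adjusted over change. The edgeR adjusted p was then 0.0625 for SEC61A1, 0.104 for SEC61B and 0.0661 for SEC61G. SEC61B also missed the threshold with limma on log2(FPKM + 1), at an adjusted p of 0.0626.

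SEC63, an ER membrane J-domain protein that lets the luminal chaperone BiP pull chains through the channel, fell most in this group. It had 42.7 FPKM in the KMS18 control, 14.1 in its knockdown, 53.9 in the KMS28BM control and 23.4 in its knockdown, which left 33.0% and 43.4%. By scaled count 37.8% and 39.0% was left. The length listed for SEC63 moved from 4539 to 5417 bases in KMS18 and from 4921 to 4659 in KMS28BM. The libraries of the 2 constructs do not overlap, and the log2 difference was -1.38 (SE 0.09, edgeR adjusted p = 0.00292). SEC63 lies on chromosome 6 (chr6:107867756-107958189, minus strand, GRCh38), and 2 pseudogenes carry its name, so a part of its reads could be shared with them.

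SEC62, its partner in the membrane, had 47.3 FPKM in the KMS18 control, 41.1 in its knockdown, 68.1 in the KMS28BM control and 54.3 in its knockdown (log2 difference -0.35, edgeR adjusted p = 0.0683). SEC61A2, a paralog of the pore subunit, was at 1.81 to 2.90 FPKM in all libraries, and its counting intervals covered 0 in KMS28BM (edgeR adjusted p = 0.733).

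The translocon-associated protein complex sits beside SEC61 and helps some signal sequences engage it. Of its 4 subunits, alpha (SSR1) and gamma (SSR3) fell, and beta (SSR2) and delta (SSR4) did not pass the test. SSR1 had 147 FPKM in the KMS18 control, 42.0 in its knockdown, 206 in the KMS28BM control and 70.6 in its knockdown. Both knockdown libraries were far below both controls, with 28.6% and 34.2% left, the smallest shares among the 34 genes. Its log2 difference was -1.72 (SE 0.10, edgeR adjusted p = 0.00164). SSR1 spans chr6:7268306-7347446 on the minus strand (GRCh38), overlaps the coding gene CAGE1 and has 2 named pseudogenes, and the library kit did not keep strand.

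SSR3 had 261 FPKM in the KMS18 control, 134 in its knockdown, 334 in the KMS28BM control and 134 in its knockdown. The lines differed by little in the knockdown, and both values were well under the controls (log2 difference -1.12, SE 0.12, edgeR adjusted p = 0.00671). SSR2 had 393 FPKM in the KMS18 control, 354 in its knockdown, 607 in the KMS28BM control and 465 in its knockdown (log2 difference -0.34, edgeR adjusted p = 0.104). SSR4 was the most abundant of the 34 in KMS18, with 992 FPKM in the control and 923 in the knockdown, beside 386 and 327 in KMS28BM (log2 difference -0.23, edgeR adjusted p = 0.218).

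TRAM1, a membrane protein that contacts nascent chains in the channel, had 220 FPKM in the KMS18 control, 167 in its knockdown, 319 in the KMS28BM control and 284 in its knockdown (log2 difference -0.35, edgeR adjusted p = 0.0909). Its paralog TRAM2 had 39.3 FPKM in the KMS18 control, 40.5 in its knockdown, 27.8 in the KMS28BM control and 34.8 in its knockdown (log2 difference 0.11, edgeR adjusted p = 0.552). TRAM2 is the 1 gene that did not fall among the 7 with an AGTCTA word.

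Signal peptidase had 3 of 5 genes that fell and the lowest median of the 5 groups, -0.90. SEC11A and SEC11C are its alternative catalytic subunits. SEC11C had 425 FPKM in the KMS18 control, 228 in its knockdown, 494 in the KMS28BM control and 270 in its knockdown, a fall to 53.6% and 54.7% (log2 difference -0.90, SE 0.09, edgeR adjusted p = 0.0056). SEC11A had 128 FPKM in the KMS18 control, 136 in its knockdown, 115 in the KMS28BM control and 124 in its knockdown, with intervals that covered 0 in both lines (log2 difference 0.04, edgeR adjusted p = 0.824). The ratio of SEC11C to SEC11A, in FPKM, went from 3.31 to 1.68 in KMS18 and from 4.29 to 2.18 in KMS28BM, so SEC11C stayed the more abundant of the pair.

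SPCS2, an accessory subunit, had 148 FPKM in the KMS18 control, 84.9 in its knockdown, 277 in the KMS28BM control and 143 in its knockdown. Both knockdown libraries lay below both controls, the KMS28BM knockdown by little against the KMS18 control (log2 difference -0.96, SE 0.10, edgeR adjusted p = 0.00541). There are 4 pseudogenes named after SPCS2. SPCS1, another accessory subunit, had 256 FPKM in the KMS18 control, 221 in its knockdown, 221 in the KMS28BM control and 185 in its knockdown (log2 difference -0.30, edgeR adjusted p = 0.0981).

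SPCS3, a subunit needed for the activity of the enzyme, had 8819 and 4048 counts in KMS18 and 11956 and 5897 in KMS28BM. By scaled count 44.1% and 47.2% was left, with a log2 difference of -1.13 (edgeR adjusted p = 0.00362, SE 0.10). In FPKM it had 67.0 and 36.2 in KMS18 (54.1% left) and 133 and 99.7 in KMS28BM (74.9% left), so the groups overlap on that scale. The length listed for the gene, by which FPKM is divided, moved from 3502 to 2980 bases in KMS18 and from 2320 to 1558 in KMS28BM. With limma on log2(FPKM + 1) the log2 difference was -0.64 (adjusted p = 0.0345). For all of the 34 genes but SPCS3 and SEC63, the listed length in KMS18 stayed within 10% of the control. In KMS28BM it did so for 32 of the 33 genes with a length in both libraries, SPCS3 being the exception. The 4 transcripts listed for SPCS3 were not separated in the tables.

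The oligosaccharyltransferase had 3 of 10 genes that fell, with a median log2 difference of -0.21. RPN1 and RPN2 are the ribophorins, structural subunits shared by both forms of the enzyme. RPN1 had 271 FPKM in the KMS18 control, 137 in its knockdown, 365 in the KMS28BM control and 174 in its knockdown (log2 difference -1.10, SE 0.10, edgeR adjusted p = 0.00482). RPN2 had 414 FPKM in the KMS18 control, 217 in its knockdown, 419 in the KMS28BM control and 272 in its knockdown (log2 difference -0.85, SE 0.12, edgeR adjusted p = 0.0107). RPN1 lies at chr3:128619970-128681075 on the minus strand and RPN2 at chr20:37178410-37241623 on the plus strand (GRCh38), where RPN2 overlaps the coding gene MROH8. For both ribophorins the knockdown libraries lay below both controls.

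DDOST and DAD1, which both forms also share, did not pass the test. DDOST had 249 FPKM in the KMS18 control, 250 in its knockdown, 645 in the KMS28BM control and 600 in its knockdown (log2 difference -0.11, edgeR adjusted p = 0.543). DAD1 had 123 FPKM in the KMS18 control, 137 in its knockdown, 348 in the KMS28BM control and 338 in its knockdown (log2 difference -0.03, edgeR adjusted p = 0.905).

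The enzyme has 2 catalytic subunits, STT3A, which acts as chains enter through SEC61, and STT3B, which can act on sites left unused. STT3B had 110 FPKM in the KMS18 control, 74.9 in its knockdown, 71.1 in the KMS28BM control and 46.1 in its knockdown. The KMS18 knockdown stayed above the KMS28BM control, and within each line the knockdown was lower (log2 difference -0.65, SE 0.10, edgeR adjusted p = 0.0128). STT3A had 164 FPKM in the KMS18 control, 148 in its knockdown, 157 in the KMS28BM control and 171 in its knockdown (log2 difference -0.06, edgeR adjusted p = 0.753). The ratio of STT3A to STT3B in FPKM went from 1.49 to 1.98 in KMS18 and from 2.20 to 3.71 in KMS28BM.

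OSTC and KRTCAP2, which belong to the STT3A form, did not pass the test (edgeR adjusted p = 0.383 and 0.086), nor did MAGT1, an oxidoreductase of the STT3B form (edgeR adjusted p = 0.183). TUSC3, the alternative oxidoreductase, was near the limit of detection, with 18 and 50 counts in KMS18 and 0 and 4 in KMS28BM (edgeR adjusted p = 0.184). MAGT1 was at 25.9 to 33.2 FPKM over the 4 libraries and OSTC at 77.2 to 105. KRTCAP2 was among the more abundant of the 34, at 423 FPKM or more in each library.

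**Figure D2:**
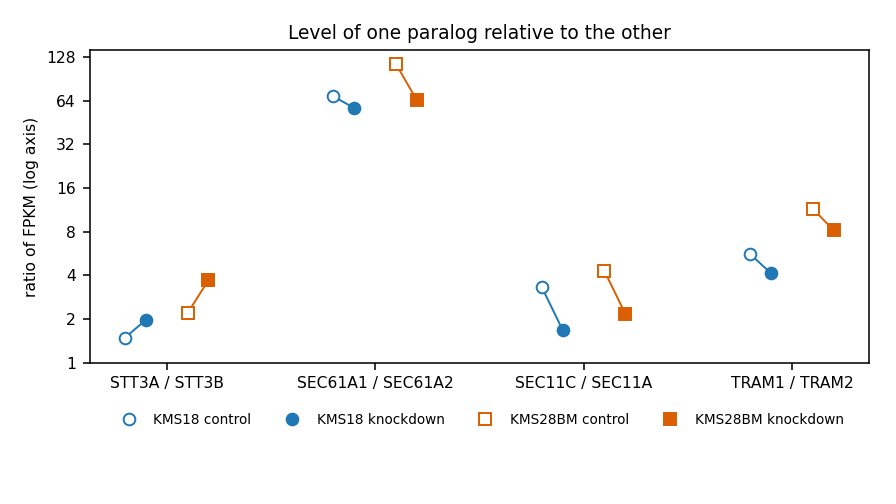
Ratio of FPKM between paralogs in each library on a log axis, open symbols for controls and filled symbols for knockdowns. The ratio of SEC11C to SEC11A goes from 3.31 to 1.68 in KMS18 and from 4.29 to 2.18 in KMS28BM, while that of STT3A to STT3B is higher in the knockdown of both lines.

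The other pairs of paralogs were far apart in level. SEC61A1 exceeded SEC61A2 by 56.8 to 114 times in FPKM, and TRAM1 exceeded TRAM2 by 4.13 to 11.5 times. Both ratios were lower in the knockdown of each line. No test was made of these ratios, which rest on 1 library per line and construct.

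Summed over the 34 genes, TMM-scaled CPM went from 9458 to 6755 in KMS18 (71.4% left) and from 10816 to 7558 in KMS28BM (69.9% left). By complex, the particle with the receptor subunit SRPRB kept most, at 91.7% and 85.8% in KMS18 and KMS28BM. The channel group kept 67.4% and 60.1%, the translocon-associated group 73.6% and 68.0%, signal peptidase 63.8% and 60.5%, and the oligosaccharyltransferase 68.7% and 73.0%. These sums weight the abundant genes and carry no test.

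Within a line there is 1 library per construct and no test, so the ratio of scaled counts is given with an exact 95% interval that covers counting error only. By this measure 26 of the 34 genes were lower in both lines with intervals off 0 (19.3% of all genes tested), and SRP9 was higher in both (16.9%). DAD1 had a log2 ratio of 0.08 (0.01 to 0.15) in KMS18 and -0.13 (-0.17 to -0.09) in KMS28BM. SRP54, SEC61A2, TRAM2, SEC11A, STT3A and TUSC3 had an interval that covered 0 in at least 1 line or no control counts.

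**Figure D3:**
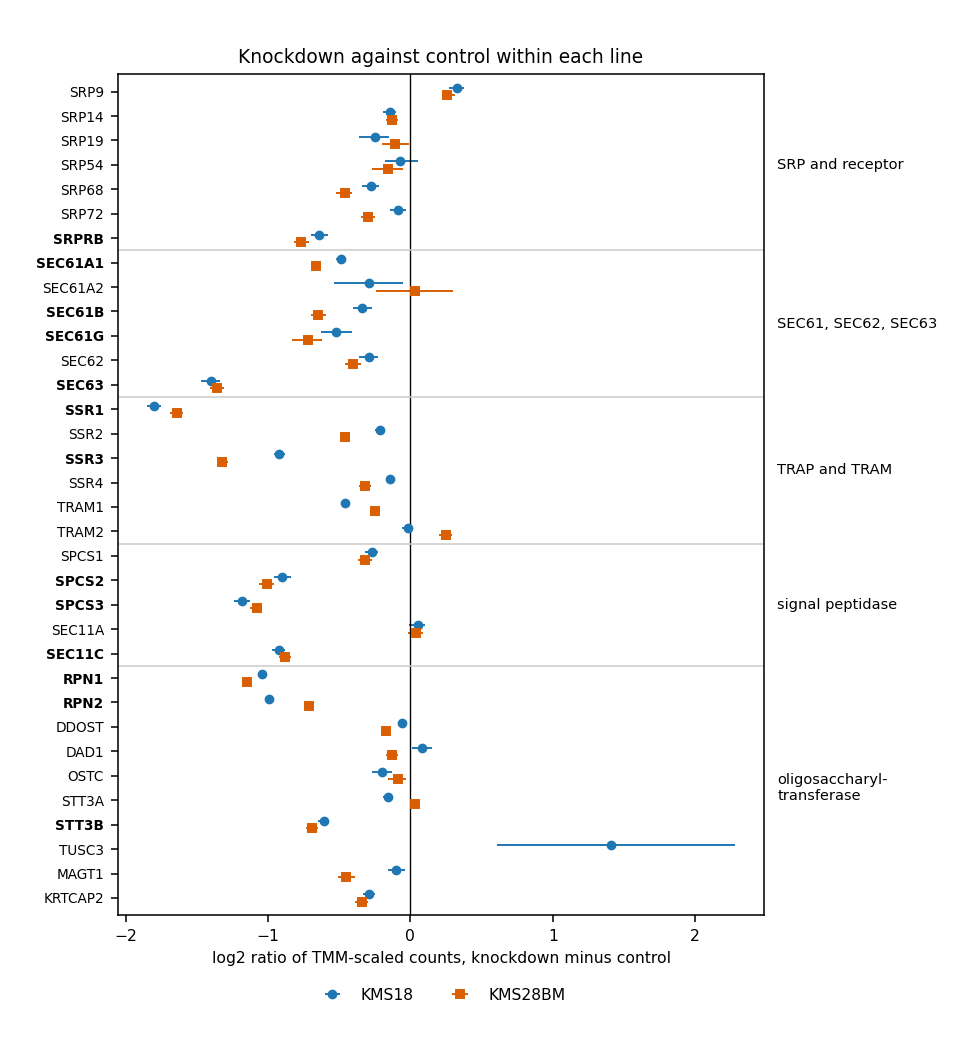
Log2 ratio of scaled counts, knockdown minus control, in KMS18 (circles) and KMS28BM (squares), with exact 95% counting intervals; names in bold are the 13 genes that fell over both lines. TUSC3 has no KMS28BM point because its control had 0 counts. SSR1 lies farthest left in both lines, at -1.80 and -1.64.

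By size, a difference of 0.5 on log2(FPKM + 1) among genes with at least 1 FPKM in a library of the line was passed downward by 11 of 34 genes in KMS18 (5.93% of all such genes) and by 12 of 33 in KMS28BM (5.6%). Of these, 10 were named in both lines: SRPRB, SEC61A1, SEC63, SSR1, SSR3, SPCS2, SEC11C, RPN1, RPN2 and STT3B. The share of all genes that passed this size in both lines was not counted. SPCS3 was added in KMS18, and SEC61B and SEC61G in KMS28BM. Upward it was passed by TUSC3 in KMS18 (8.18% of all genes) and by 0 genes in KMS28BM (9.03%).

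A difference of 1 was passed downward by SEC63 and SSR1 in KMS18 (0.647% of all genes) and by those and SSR3 and RPN1 in KMS28BM (0.751%). Upward it was passed by 0 of the 34 in KMS18 (0.818% of all genes) and 0 of 33 in KMS28BM (1.24%). The median difference on this scale was -0.21 in KMS18, beside 0.04 over all genes, and -0.32 in KMS28BM, beside 0.05.

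**Figure D4:**
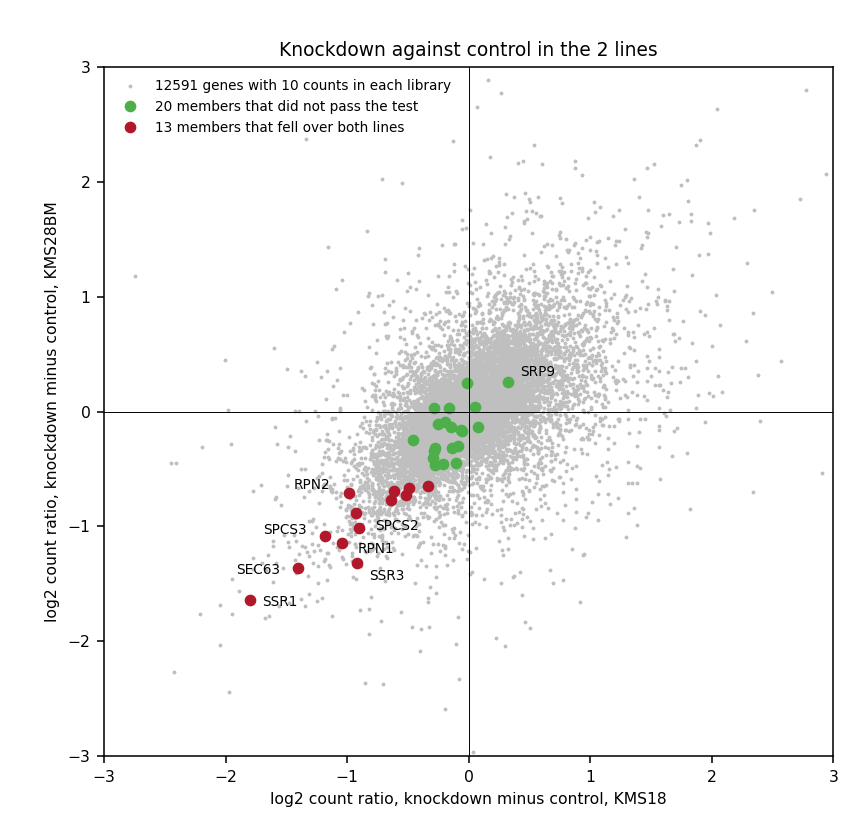
Log2 ratio of scaled counts, knockdown minus control, in KMS18 (horizontal) and KMS28BM (vertical) for 12591 genes with at least 10 counts in each library (grey, 7 of them outside the axes) and for 33 of the 34 genes (TUSC3 has too few counts). The 13 genes that fell (red) lie below 0 on both axes, and SRP9 lies above 0 on both.

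The lines also differ from each other in this machinery, as they do over most of the genes tested. At equal construct 13 of the 34 genes were higher in KMS28BM (30.6% of all genes tested) and 5 were lower (32.3%), with a median log2 difference, KMS28BM minus KMS18, of 0.15, beside -0.02 over all genes. DAD1 and DDOST stood highest, with log2 differences of 1.28 (SE 0.10, edgeR adjusted p = 6.14e-05) and 1.23 (SE 0.11, edgeR adjusted p = 8.50e-05). SSR4 was lower in KMS28BM by the most among genes with over 100 FPKM, with -1.47 (SE 0.11, edgeR adjusted p = 3.73e-05), while the other subunits of its complex had 0.51 (SSR1), 0.43 (SSR2) and -0.01 (SSR3).

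STT3B was lower in KMS28BM (log2 difference -0.75, edgeR adjusted p = 5.32e-04, SE 0.10) and STT3A did not pass (0.07, edgeR adjusted p = 0.579). SPCS2 (0.63), TRAM1 (0.57) and SEC61B (0.49) were higher, and TRAM2 (-0.44) and SPCS1 (-0.31) were lower. TUSC3, the fifth lower gene, has 18 and 50 counts against 0 and 4, so its fitted difference is not a measure of size. Without the construct in the model 2 of the 34 were called higher (20.6% of all genes) and 2 lower (23.3%).

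**Figure D5:**
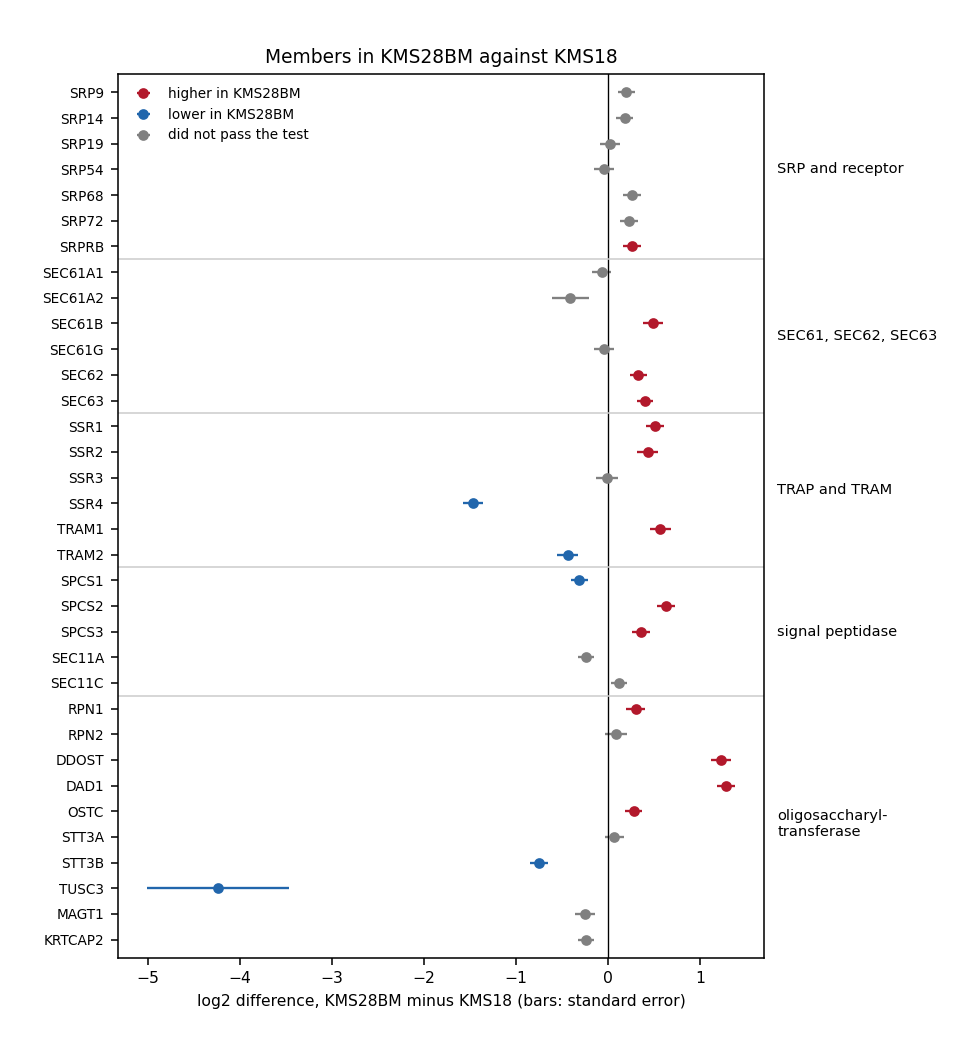
Log2 difference KMS28BM minus KMS18 for the 34 genes with its standard error, red for genes higher in KMS28BM, blue for genes lower and grey for those that did not pass the test. DAD1 and DDOST stand at 1.28 and 1.23 and SSR4 at -1.47; the TUSC3 point rests on 18, 50, 0 and 4 counts.

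Genes that work next to this machinery were read from lists in the same test. The first list held 13 other genes of the particle's receptor, the translocon, the ER membrane, the oligosaccharyltransferase and the BiP chaperone system. Of these 7 fell and 0 rose, with a median log2 difference of -0.49 (DESeq2 called 7 lower and 1 higher, and 4 fell with no filter on low counts). Those that fell were LRRC59, CKAP4, HM13 and KTN1, and HSPA5, HYOU1 and DNAJC3 of the BiP system. OST4 and TMEM258 of the oligosaccharyltransferase did not pass (edgeR adjusted p = 0.695 and 0.0839), nor did the receptor subunit SRPRA (log2 difference 0.28, edgeR adjusted p = 0.116). CKAP4, which anchors the ER to microtubules, had 74.0 FPKM in the KMS18 control, 44.1 in its knockdown, 42.1 in the KMS28BM control and 19.2 in its knockdown (log2 difference -1.01, edgeR adjusted p = 0.00873). DNAJC3, a luminal cochaperone of BiP, had 19.2 FPKM in the KMS18 control, 12.8 in its knockdown, 53.0 in the KMS28BM control and 33.1 in its knockdown (-0.67, edgeR adjusted p = 0.0117). LRRC59, a ribosome-binding ER protein, had 74.4 FPKM in the KMS18 control, 42.9 in its knockdown, 84.9 in the KMS28BM control and 58.6 in its knockdown (-0.73, edgeR adjusted p = 0.0122).

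None of 10 genes of the ER membrane complex and none of 7 genes of the GET route for tail-anchored proteins passed with edgeR, DESeq2 or limma, with 1 gene of each list at an unadjusted edgeR p under 0.05. Their median log2 differences were 0.03 and 0.04. Of 9 genes of the multipass translocon, which assembles on SEC61, 3 fell, and these were NOMO1, NOMO2 and NOMO3 (log2 differences -0.41, -0.43 and -0.40). The 3 are near-identical copies whose reads the counting could split, so they are not separate observations, and with the scaling of DESeq2 in the edgeR test 1 of 9 passed, and with no filter or with 1 identifier per symbol 0 did.

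The glycan that the oligosaccharyltransferase uses is built on dolichol by a separate set of enzymes. The list read here, of 32 genes, also holds enzymes that make the sugar nucleotides. Of the 32 genes 7 fell and 2 rose, with a median log2 difference of -0.21. Those that fell were DPAGT1, ALG3 and ALG5 of the dolichol steps, and PMM2, GMPPA, GMPPB and PGM3 of the sugar nucleotide steps. DPAGT1, which adds the first sugar, had 58.2 FPKM in the KMS18 control, 38.7 in its knockdown, 111 in the KMS28BM control and 61.0 in its knockdown (-0.82, edgeR adjusted p = 0.0131). PGM3 and GMPPB, which act in making the nucleotide sugars UDP-N-acetylglucosamine and GDP-mannose, had log2 differences of -0.83 and -0.60 (edgeR adjusted p = 0.0153 and 0.0179). With limma on log2(FPKM + 1) neither passed, PGM3 at -0.40 (adjusted p = 0.0986) and GMPPB at -0.44 (adjusted p = 0.0676). DPM3, a subunit of dolichol-phosphate mannose synthase, rose, with 62.7 FPKM in the KMS18 control, 91.4 in its knockdown, 53.9 in the KMS28BM control and 91.2 in its knockdown (0.57, edgeR adjusted p = 0.0338). DHDDS, which makes the dolichol chain, rose as well (0.47, edgeR adjusted p = 0.046), but missed the threshold with limma on log2(FPKM + 1) (adjusted p = 0.0537) and with DESeq2 (adjusted p = 0.0806). With limma on log2(FPKM + 1) 3 fell and 1 rose, and with no filter on low counts 0 of 32 passed.

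After transfer, the glycan is trimmed and read by folding and disposal factors, and of 14 such genes 5 fell and 0 rose, with a median log2 difference of -0.37. EDEM3 and EDEM1, which act in trimming mannose on misfolded proteins, had -0.55 and -0.46 (edgeR adjusted p = 0.0276 and 0.0334), and MOGS, the glucosidase that makes the first cut, had -0.48 (edgeR adjusted p = 0.0289). EDEM1 missed the threshold with limma on log2(FPKM + 1), at an adjusted p of 0.0622. With limma on log2(FPKM + 1) 3 of 14 fell, and with no filter 0 did.

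Plasma cell markers moved beside the falls above. Of the 10 plasma cell markers tested 7 fell (SDC1, TNFRSF17, XBP1, IRF4, SLAMF7, MZB1 and POU2AF1), which was 6 with limma on log2(FPKM + 1) and 5 with no filter. CD38 rose in the edgeR test (log2 difference 0.59, adjusted p = 0.0193), but had 0.18 with limma (adjusted p = 0.322) and missed the threshold with no filter (edgeR adjusted p = 0.0625). The summed level of the plasma cell list was 7800 FPKM in the KMS18 control, 6670 in its knockdown, 8700 in the KMS28BM control and 7960 in its knockdown. JCHAIN, which did not pass the test, makes up most of it, and without JCHAIN 61.4% was left in KMS18 and 59.6% in KMS28BM. Of markers of other cell types, CIITA (log2 difference 0.71, edgeR adjusted p = 0.0425) and CD3E (1.5, edgeR adjusted p = 0.00611) rose, and CIITA missed the threshold with no filter (edgeR adjusted p = 0.123). XBP1, a transcription factor of the unfolded protein response and of plasma cells, had 360 FPKM in the KMS18 control, 196 in its knockdown, 472 in the KMS28BM control and 265 in its knockdown (log2 difference -0.90, SE 0.10, edgeR adjusted p = 0.00671). The part of these markers in the fall of the machinery was not tested.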

How the data were processed

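Each library has a gene table of expected (estimated) counts and FPKM made by the authors, per the file headers; between 52.2% and 54.0% of the deposited expected counts lie within 0.005 of a whole number. STAR, Bowtie2, HISAT, GRCh37 and hg19 are named without roles in the submitters' processing notes, and the program that counted reads is not given there. Libraries came from a TruSeq kit without strand, per the labels' protocols. Values of 23844 identifiers were summed by symbol to 22187 genes (820 symbols shared by several identifiers, 3259 identifiers without a symbol). Rounded counts were tested with edgeR 4.0.16 (R 4.3.3) with TMM scaling, a minimum count of 10, line and construct in the model, 14870 genes, 1 residual degree of freedom and a prior of 5.85. Alternatives used limma 3.58.1 and DESeq2 1.42.0, other scalings and filters, a pseudocount of 0.1, and no line or construct block. The lines are the only replication. The prior exceeds the residual degrees of freedom, so p-values set the mean difference against a variance mostly shared across genes. They do not measure how alike the lines moved. Totals of 37940949 to 39507281 counts per library make counting error small for all but TUSC3 and SEC61A2. Of the genes here, 12 overlap a coding gene and 9 have named pseudogenes in GENCODE 29. Values in every library are given for each gene that passed the knockdown test, and up to 3 genes per direction with the smallest adjusted p are given for each neighbouring list. The genes and lists were chosen with earlier results of these data known.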

Additional observations from a re-analysis of the deposited data

Results flagged for a closer look

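DAD1, a shared subunit of the oligosaccharyltransferase, moved in opposite directions in the lines: its log2 ratio of scaled counts, knockdown minus control, was 0.08 in KMS18 and -0.13 in KMS28BM, and both counting intervals left out 0. The difference between the lines was not tested, because each line has 1 library per construct.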

How the results depend on the processing

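Under median of ratios scaling, a filter of 5 CPM in 2 libraries, limma with either pseudocount, 1 identifier per symbol, DESeq2 and no filter, 10 to 18 of the 34 genes were lower with the knockdown and 0 higher. Over the same settings, 1.1% to 6.6% of all genes tested were lower and 0.561% to 5.72% were higher. DESeq2 added SRP68, SEC62, SSR2, TRAM1 and KRTCAP2, and gave no adjusted p for TUSC3. SEC61A1, SEC61B and SEC61G lost the call with no filter, and SEC61B also with limma and with 1 identifier per symbol. Without the cell line as a replicate block 0 of the 34 were lower, as were 0 of all genes. Without the construct 2 were lower (23.3% of all genes) and 2 higher (20.6%) between lines. Under the other settings 4 to 5 were lower (17.3% to 33.9% of all genes) and 10 to 15 higher (17.1% to 36.2%). Over all genes, 781 fell and 531 rose, against 243 and 124 when no filter was applied, 487 and 542 in limma with a pseudocount of 1, and 532 and 323 with 1 identifier per symbol. Differences near 0 that never passed the test changed sign. Between lines these were SRP54 (0.07 with limma), SEC61G (0.04 with limma) and SSR3 (0.00 with median of ratios scaling, 0.01 with DESeq2, 0.18 with limma, 0.06 without the replicate block), and for the knockdown DAD1 (0.06 with limma); the cause was not tested. The median of all genes stayed between 0.0107 and 0.0607. Leaving out a line leaves the other line's ratio, a value with no test. With 1 residual degree of freedom and no repeat culture, differences between cultures of a line were not measured.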
